A study of Danio rerio with 6 samples.

Results

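The genes described here encode the adhesion machinery that ties cells to their matrix. They comprise integrin chains, laminin chains, nidogens, perlecan, agrin, fibronectin, thrombospondins, tenascins and the SPARC family outside or at the cell surface, and talins, vinculin, kindlins, integrin-linked kinase and paxillin inside the cell. They were picked out of the tables by gene name, and 85 of the 32520 gene IDs in the count tables carried such a name. By role, 37 were matrix ligands, 34 were receptors, 13 were adaptors, and 1, itgb3bp, is a centromere protein that only carries an integrin name. A secreted integrin beta-like protein was counted among the ligands and an integrin beta binding protein among the adaptors. Of these 85 IDs, 29 had at least 10 counts in 3 or more libraries, namely 18 ligands, 8 receptors and 3 adaptors.

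Integrins are heterodimers of an alpha and a beta chain that bind matrix proteins outside the cell. Talin and kindlin bind the cytoplasmic tail of the beta chain and switch the receptor on, and integrin-linked kinase, paxillin and vinculin then couple it to actin. Endothelial cells rest on a basement membrane of laminins, nidogens, perlecan and collagen IV. Fibronectin, tenascin-C and thrombospondins belong to the provisional matrix of wounds, and fibronectin is deposited in the regenerating zebrafish heart.

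The RNA came from kdrl:eGFP-positive cells sorted from ventricles of adult zebrafish of strain Tu, with about 15 hearts taken for an isolation, at 7 days after ventricular resection. DNK fish carried the driver kdrl:CreER, the reporter kdrl:eGFP and the cassette ubi:loxp-DsRed-stop-loxp-DN-xBrg1, and had been given 4-hydroxytamoxifen for 3 days before resection, so that cells with an active kdrl promoter made dominant-negative Xenopus Brg1. CtrlK fish carried the stopped DN-xBrg1 cassette and kdrl:eGFP without kdrl:CreER and, per the treatment protocol, had the same drug, while other labels call them untreated or wild-type siblings. An effect of Cre therefore cannot be told apart from one of DN-xBrg1, nor an effect of the drug if CtrlK went without it. There were 3 libraries of DNK and 3 of CtrlK. Whether the 3 of a group were separate isolations is not said in the labels, and the spread between them, which is all that a p-value weighs here, may be technical.

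Gene counts came to 174371 to 227373 per library, at which 3 counts equal 13.2 to 17.2 CPM (a gene's counts scaled to one common library total, by the usual definition), and 3792 genes were tested. Reads that overlapped no gene were 4.85 to 6.0 per gene count in CtrlK and 3.18 to 3.73 in DNK. They numbered 723608 to 1162096 per library. What is called reads outside genes below, for a scaling and a covariate, is all reads not assigned to a gene, 13342943 to 19005320 per library. Odorant receptors, 151 IDs picked by name, were summed for comparison, and their use by these cells was not tested. Their sum was 1149, 898 and 1184 normalized CPM in CtrlK and 633, 727 and 592 in DNK. It was lower in every DNK library, and its part in the lower values reported below was not tested. Of 18 endothelial marker IDs 17 had counts, with a summed level of 1438 to 1962 CPM in CtrlK and 2270.3 to 2493 in DNK, and one of 2 IDs named CLDN5 was at 0. Of the 8 endothelial IDs tested by edgeR, 6 had positive log2 fold changes, and only vwf was called. Their median was 0.53, beside −0.07 over all genes tested. vwf, with much of the rise, had 26, 31 and 63 counts in CtrlK and 123, 91 and 118 in DNK. The other way went flt1 (61, 44 and 55 against 33, 39 and 24) and FLT4 (34, 43 and 31 against 24, 24 and 26). Cardiomyocyte markers summed to 956 to 1446 CPM in CtrlK and 1253 to 1814 in DNK. In such bulk samples fewer cells of a type and less RNA per cell cannot be told apart.

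The comparison of DNK with CtrlK asks, per the series title, what endothelial Brg1 does during heart regeneration. Summed over the 37 matrix ligand IDs, the level was 3680 ± 373 CPM in CtrlK and 2721 ± 158 in DNK (SD over 3 libraries), lower in every DNK library, while the 34 receptor IDs summed to 2236 ± 143 and 2093 ± 452 with overlap and the 13 adaptor IDs to 697 ± 24.4 and 868 ± 136, higher in every DNK library. By family, tenascins (means of 895 and 411 CPM) and thrombospondins (1361 and 901) were lower in every DNK library. Laminins (501 and 506), nidogens, perlecan and agrin (582 and 551), fibronectins (229 and 215) and the SPARC family (104 and 124) overlapped. Among adaptors, the low-count kindlins were higher in every DNK library (53.1 and 183), while talins (462 and 384) overlapped. No single adhesion gene passed the test as designed. By edgeR, 0 of the 31 tested members were called at an adjusted p below 0.05, beside 7.12% of all genes tested (270 of 3792), of which 4.72% were called higher and 2.4% lower. At an unadjusted p under 0.05 there were 7 of 31 members, or 22.6%, beside 24.8% of all genes. By DESeq2 2 members were called (TNC and tnxba), beside 7.99% of all genes, and by limma-voom 0, beside 4.85%. Other settings called 3 members with library size alone and 2 of 7 with a filter of 50 counts in 3 libraries, beside 7.52% and 26.4% of all genes tested in the same setting. The 31 are the 29 above plus 2, itgb7 among them, that had 10 counts in only 2 libraries but met the test's own filter. itgb2 and itgb7 reached 10 counts in DNK libraries alone, the group where they are higher. They met the test's own filter, which is set in CPM, with CtrlK replicate 1 (9 counts of each) beside DNK libraries. The standard error of the log2 fold change ran from 0.28 to 0.57 with a median of 0.42 over the 30 members reported singly, so these data do not show that the members were equal in both groups.

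Counts by direction were taken for each role. Among 19 tested ligands 14 had negative log2 fold changes, with a median of −0.37. Among 9 tested receptors 4 were negative (median 0.01), and among 3 adaptors 1 was. Over all genes 53.1% were negative and the median was −0.07. The positive receptors include itgb2 and itgb7, which reached 10 counts only in DNK, the group where they are higher. With the filter of 10 counts in 3 libraries, which itgb2 met through DNK alone, 4 of 8 receptors (median −0.03) and 2 of 3 adaptors were negative. Groups that did not overlap, with every DNK library lower, were found in 8 of 31 members (6 ligands, 1 receptor and 1 adaptor), or 25.8%, beside 14.6% of all genes, and the opposite in 1 member (itgb2), or 3.23%, beside 16.2%. The difference between the roles was not tested.

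**Figure D1:**
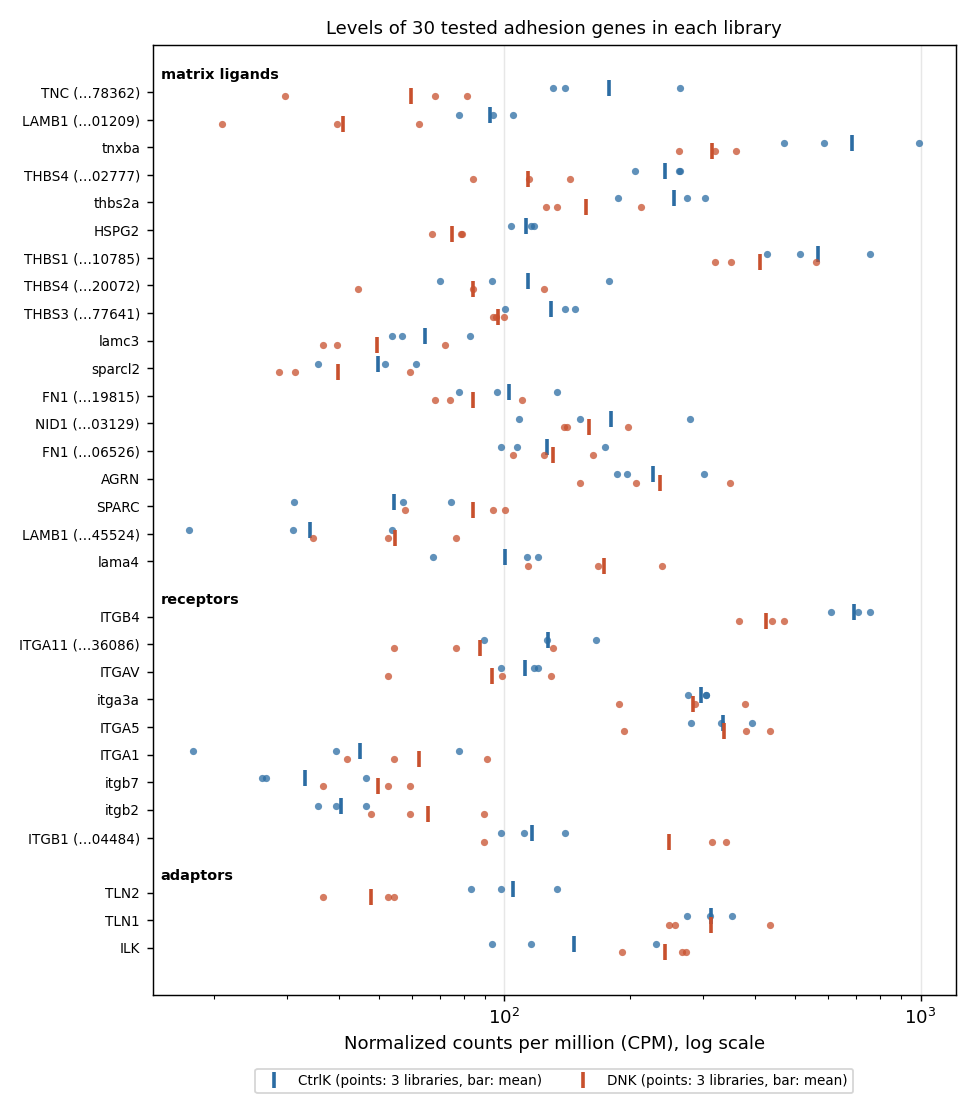
Normalized CPM (x axis, log scale) of 30 of the 31 tested members in each CtrlK and DNK library, by role. Points are libraries and vertical bars are group means, and digits in brackets are the last digits of the gene ID where IDs share a name. The DNK points of tnxba (263 to 361 CPM) lie left of the CtrlK points (471 to 992 CPM), while the points of most receptors mix.

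The ligands with the smallest p were a pair of tenascins and a thrombospondin. tnxba encodes a tenascin-X, a large glycoprotein of connective tissue, and had 471, 992 and 586 normalized CPM in CtrlK and 361, 263 and 319.8 in DNK. TNC (ENSDARG00000078362), named for tenascin-C, an anti-adhesive glycoprotein of wound matrix, had 139.7, 264 and 131 CPM in CtrlK and 29.7, 81.4 and 68.2 in DNK. For both genes every DNK library lay below every CtrlK library. The log2 fold change was −1.12 ± 0.34 for tnxba (SE, adjusted p = 0.0564) and −1.57 ± 0.47 for TNC (SE, adjusted p = 0.0567), both by edgeR and just outside the threshold. tnxba passed with DESeq2 (adjusted p = 0.0343), with library size alone (0.0277) and without CtrlK replicate 1 (0.0457), and TNC passed with DESeq2 (0.0486) and with library size alone (0.0371). CtrlK replicate 2 was the highest library of both genes. Without single libraries the log2 fold change ran from −1.29 to −0.73 for tnxba (edgeR adjusted p of 0.0457 to 0.234). For TNC it ran from −1.83 to −1.15 (0.0624 to 0.218). Over all alternatives their adjusted p ran from 0.00529 to 0.908 for tnxba and from 0.00927 to 0.940 for TNC. These alternatives include scaling to the 200 most abundant genes, where the median of all genes was −0.86. They also include the covariate of reads outside genes, which cannot be told apart from the groups. The sum of fibroblast and epicardial markers, from cells known to make tenascins, was higher in every DNK library. It was 1148 ± 62.7 CPM in CtrlK and 1695 ± 4.08 in DNK over 15 IDs, of which wt1b was at 0. Single markers went both ways, with positive log2 fold changes in 6 of the 8 tested (median 0.46). COL1A2 had 16, 16 and 31 counts in CtrlK and 67, 60 and 44 in DNK. It was called (edgeR adjusted p = 0.0229, and 0.0176 to 0.0839 without single libraries). The other way, col1a1a had 36, 35 and 62 against 28, 34 and 32. The part of such cells in the tenascin values was not tested. The other ID named TNC (ENSDARG00000021948) had 22 counts in CtrlK as in DNK and was not tested.

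Thrombospondins are secreted glycoproteins that bind matrix, calcium and cell-surface receptors. THBS4 (ENSDARG00000102777) had 264, 205 and 262 CPM in CtrlK and 143, 115 and 83.9 in DNK, with no overlap between the groups and a log2 fold change of −1.09 ± 0.35 (SE, edgeR adjusted p = 0.0723). It passed with library size alone (adjusted p = 0.0362). THBS1 (ENSDARG00000010785), which platelets store and many cells secrete, had 755, 514 and 428 CPM in CtrlK and 351, 321 and 561 in DNK, and the groups overlapped (log2 fold change −0.46 ± 0.33). thbs2a had 274, 304 and 188 CPM in CtrlK and 213, 134 and 126 in DNK, with overlap again (−0.69 ± 0.36). All 5 tested thrombospondin IDs had negative values, THBS3 (ENSDARG00000077641) with −0.42 ± 0.39 and the second THBS4 (ENSDARG00000020072) with −0.43 ± 0.50, and none passed. The second THBS4 turned to 0.08 without CtrlK replicate 2. Summed over the 8 thrombospondin IDs, the level lay between 1101 and 1552 CPM in CtrlK (1361 ± 233) and between 847 and 996 in DNK (901 ± 82.6, SD over 3 libraries), and over the 3 tenascin IDs it was 895 ± 361 and 411 ± 54.0. Both sums were lower in every DNK library than in any CtrlK library, as was the odorant receptor sum, at 1077 ± 156 and 651 ± 69.3 CPM.

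Basement membrane genes went both ways. lama4, the alpha 4 chain of the laminin best known from blood vessels, had 67.3, 121 and 114 CPM in CtrlK and 114, 239 and 168 in DNK (log2 fold change 0.78 ± 0.41, SE, edgeR adjusted p = 0.255). Of 2 IDs named LAMB1, for the beta 1 chain, ENSDARG00000101209 had 77.6, 93.8 and 105 CPM in CtrlK and 39.5, 62.2 and 21.0 in DNK with no overlap (−1.15 ± 0.48, edgeR adjusted p = 0.154). The other, ENSDARG00000045524, had 17.5 to 53.6 CPM in CtrlK and 34.6 to 76.6 in DNK (0.67 ± 0.57, edgeR adjusted p = 0.491). The copies thus had values of opposite sign, and their difference was not tested. HSPG2, which encodes the heparan sulfate proteoglycan perlecan, had 103, 116 and 118 CPM in CtrlK and 79.1, 67.0 and 78.6 in DNK, which did not overlap but gave only −0.59 ± 0.41 (edgeR adjusted p = 0.396). The groups overlapped for lamc3, a gamma chain gene (−0.37 ± 0.47). Summed over 14 laminin IDs, the mean level was 501 ± 23.6 CPM in CtrlK and 506 ± 111 in DNK (SD over 3 libraries).

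The remaining ligands were the linkers of the basement membrane, the fibronectins and the SPARC family. NID1 (ENSDARG00000103129), for nidogen, which bridges laminin to collagen IV, had 109 to 279.7 CPM in CtrlK and 139 to 198 in DNK (−0.18 ± 0.40). AGRN, which encodes agrin, had 186 to 302 and 152 to 349 (0.05 ± 0.37). Fibronectin, the main ligand of integrin alpha 5 beta 1, had 2 tested IDs, FN1 ENSDARG00000006526 with 98.3 to 175 CPM in CtrlK and 105 to 163 in DNK (0.04 ± 0.40) and FN1 ENSDARG00000019815 with 77.6 to 134 and 68.2 to 110.1 (−0.29 ± 0.43). SPARC, a collagen-binding matricellular protein, had a log2 fold change of 0.63 ± 0.48 and sparcl2 one of −0.31 ± 0.53. In each of these 6 genes the groups overlapped, with edgeR adjusted p of 0.435 to 0.956. The sign of AGRN and of FN1 ENSDARG00000006526 turned with library size alone, that of both and of SPARC with scaling to the 200 most abundant genes, and that of NID1 without CtrlK replicate 3 (0.31).

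**Figure D2:**
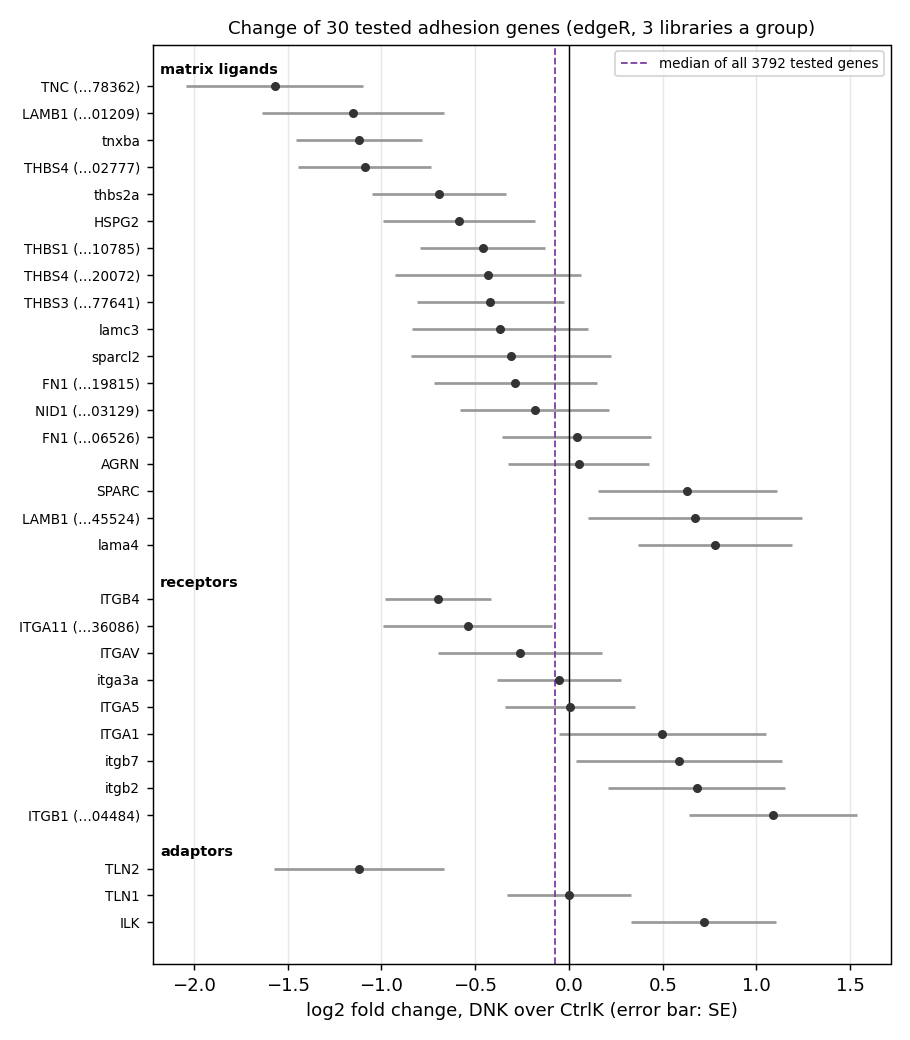
Log2 fold change of DNK over CtrlK (x axis, error bars are SE) for 30 of the 31 tested members, sorted within each role, with the median of all 3792 tested genes as a dashed line. TNC lies lowest at −1.57 and ITGB1 ENSDARG00000104484 highest at 1.09, and no member passed the test.

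Of the 9 tested receptors, a pair of beta chains had the smallest p. ITGB4 encodes the beta 4 chain, which pairs with alpha 6 and in epithelia anchors cells to laminin through hemidesmosomes. It had 611, 706 and 756 normalized CPM in CtrlK and 440.0, 469 and 367 in DNK, with no overlap and a log2 fold change of −0.70 ± 0.28 (SE, edgeR adjusted p = 0.138), and it passed when only genes with at least 50 counts in 3 libraries were tested (adjusted p = 0.0214). ITGB1 ENSDARG00000104484, one of 4 IDs named for the beta 1 chain that most alpha chains pair with, had 98.3, 112 and 139.8 CPM in CtrlK and 341, 316 and 89.1 in DNK. DNK replicates 1 and 2 were high and DNK replicate 3 lay below all CtrlK libraries. The log2 fold change was 1.09 ± 0.45 (SE, edgeR adjusted p = 0.146), and without DNK replicate 3 it was 1.52 and passed (adjusted p = 0.0416). Its edgeR adjusted p ran from 0.0416 to 0.385 without single libraries. Across all alternatives, the covariate of reads outside genes included, the range was 0.0416 to 0.940. The other ITGB1 IDs had 22 and 16 counts (ENSDARG00000022689), 25 and 17 (ENSDARG00000053232) and 2 and 6 (ENSDARG00000071863) in CtrlK and DNK, and reads of such close copies may be split or dropped.

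The alpha chains with the most counts had log2 fold changes close to 0. ITGA5, the fibronectin receptor chain, had 331, 281 and 393 CPM in CtrlK and 381, 436 and 194 in DNK (log2 fold change 0.01 ± 0.35). itga3a, a laminin receptor chain, had 305, 277 and 306 CPM in CtrlK and 287, 378 and 189 in DNK (−0.05 ± 0.33). In both genes, and in ITGAV (98.3 to 121 and 52.4 to 129, −0.26 ± 0.44), which binds vitronectin and other RGD proteins, DNK replicate 3 was the lowest of the 6 libraries. The sign of ITGA5 turned with library size alone (−0.22) and that of itga3a with scaling to reads outside genes (0.08). Collagen receptor chains had log2 fold changes of 0.50 ± 0.55 (ITGA1, 0.14 without CtrlK replicate 2 and 1.13 without CtrlK replicate 1) and −0.54 ± 0.45 (ITGA11 ENSDARG00000036086). None of these 5 alpha chains passed by edgeR, with adjusted p of 0.484 to 0.989.

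The leukocyte chains itgb2 and itgb7, which entered the test only through their DNK counts, had positive values that did not pass. itgb2, for the common beta chain of leukocyte integrins, had 46.6, 35.7 and 39.3 CPM in CtrlK and 59.3, 47.9 and 89.1 in DNK, every DNK library above every CtrlK library (log2 fold change 0.68 ± 0.47, SE, edgeR adjusted p = 0.395). itgb7 had 26.2 to 46.6 CPM in CtrlK and 36.7 to 59.3 in DNK (0.59 ± 0.55). Both signs turned when scaled to the 200 most abundant genes, where the median of all genes was −0.86. Macrophage and neutrophil markers had summed levels of 755, 786 and 1381 CPM in CtrlK and 1869, 1833 and 1699 in DNK over 24 IDs, of which 22 had counts and lyz and 1 of the IDs named MFAP4 were at 0. By edgeR 0 of the 7 tested IDs among them passed, while 6 had positive log2 fold changes (median 0.95). Much of the sum was held by cd74a, cd74b and spi1a. The part of such cells in the integrin values was not tested.

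Of the 3 tested adaptors, TLN2 had the smallest p. TLN2 encodes talin-2, which like talin-1 binds integrin beta tails and actin, and had 98.3, 134 and 83.0 CPM in CtrlK and 54.4, 52.6 and 36.7 in DNK. The groups did not overlap, and the log2 fold change was −1.12 ± 0.45 (SE, edgeR adjusted p = 0.140). TLN1, for talin-1, had 352, 313 and 275 CPM in CtrlK and 257, 249 and 435 in DNK, a log2 fold change of 0.00 ± 0.33 whose sign differed between scalings. ILK, for integrin-linked kinase, a scaffold between integrins and actin, had 93.1, 116 and 232 CPM in CtrlK and 267, 191 and 273 in DNK with overlap (0.72 ± 0.39, edgeR adjusted p = 0.267).

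**Figure D3:**
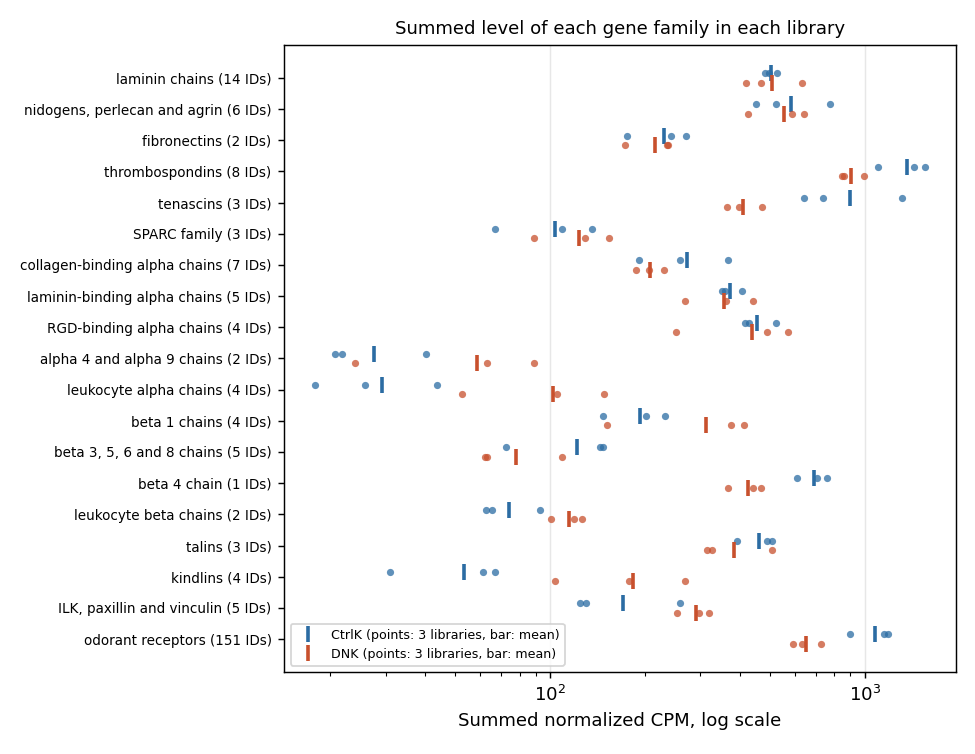
Summed normalized CPM (x axis, log scale) of each gene family over all its IDs in each library, with odorant receptor genes in the bottom line for comparison. Points are libraries and vertical bars are group means. Tenascins, thrombospondins, the beta 4 chain and odorant receptors are lower in every DNK library, and kindlins and leukocyte alpha and beta chains are higher in every DNK library.

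The other 54 members had 0 to 72 counts over the 6 libraries together, with a median of 19, and did not enter the test as designed. They were examined in a fit with no filter on low counts, and a few also met the filter when a library was left out. The fit with no filter took in 83 members with any count and called 3, or 3.61%, all higher in DNK, beside 1.6% of all 23176 genes with a count called in either direction and 1.22% called higher. These 3 were FERMT2, FERMT3 (ENSDARG00000030938) and itgae.2.

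FERMT2 encodes kindlin-2, the integrin activator of most solid tissues, and had 2, 4 and 4 counts in CtrlK, against 7, 38 and 17 in DNK. Every DNK library was above every CtrlK library, and DNK replicate 2 held most of the counts. With no filter its log2 fold change was 2.80 ± 0.63 (SE, edgeR adjusted p = 0.00173) and it rose also by DESeq2 (adjusted p = 0.0146) and limma-voom (0.0176). That call did not hold without DNK replicate 2 (log2 fold change 2.06, adjusted p = 0.247) and with scaling to the 200 most abundant genes (0.0607).

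FERMT3 ENSDARG00000030938 is one of 2 IDs named for kindlin-3, which in mammals is made by blood cells. It had 0, 0 and 1 counts in CtrlK and 8, 9 and 6 in DNK, a ratio of 24.7 (95% exact counting interval 4.01 to 1017). With no filter its edgeR adjusted p was 0.0110, and that call did not hold when CtrlK replicate 1 (0.0637), CtrlK replicate 2 (0.0880) or DNK replicate 2 (0.0653) was left out, nor with scaling to the 200 most abundant genes (0.0572). DESeq2 with no filter returned no adjusted p for this ID, and limma-voom gave 1.6e-05. The other ID, ENSDARG00000079267, had 4, 10 and 9 counts in CtrlK and 6, 9 and 11 in DNK, a ratio of 1.21 (0.665 to 2.23). Only the first copy therefore passed, and the difference between the copies was not tested. Kindlin counts over 4 IDs summed to 53.1 ± 19.3 CPM in CtrlK and 183 ± 82.2 in DNK (SD over 3 libraries).

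itgae.2 carries the name of the alpha E chain, which in mammals pairs with beta 7 on lymphocytes of epithelia. It had 1, 2 and 4 counts in CtrlK and 18, 10 and 8 in DNK, with no overlap, a ratio of 5.52 (95% exact counting interval 2.42 to 14.7) and an adjusted p of 0.0426 by edgeR with no filter. The call was lost without any one library except CtrlK replicate 3, with adjusted p of 0.0647 to 0.422, and with RLE factors (0.0541), library size alone (0.123) or scaling to the 200 most abundant genes (0.229). For itgae.2 too DESeq2 with no filter returned no adjusted p, and limma-voom gave 0.0398. The similarly named itgae.1 had totals of 8 and 11 counts in the CtrlK and DNK libraries, while itgam.1, for the alpha chain of myeloid cells, had 2 and 11. Leukocyte alpha chains over 4 IDs summed to 29.1 ± 13.2 CPM in CtrlK and 102 ± 48.0 in DNK, beside the macrophage and neutrophil sums above. Lymphocyte markers summed to 371 to 517 CPM in CtrlK and 144 to 198 in DNK over 9 IDs, of which cd79a was at 0. Most of that sum was cd8a, a chain of the T cell coreceptor and the only lymphocyte marker tested, with 344 ± 47.1 CPM in CtrlK and 131 ± 21.6 in DNK (log2 fold change −1.38 ± 0.33, edgeR adjusted p = 0.0226). Its call did not hold without CtrlK replicate 1 (0.0689), without any one DNK library (0.0739 to 0.102) or with no filter (0.0777).

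**Figure D4:**
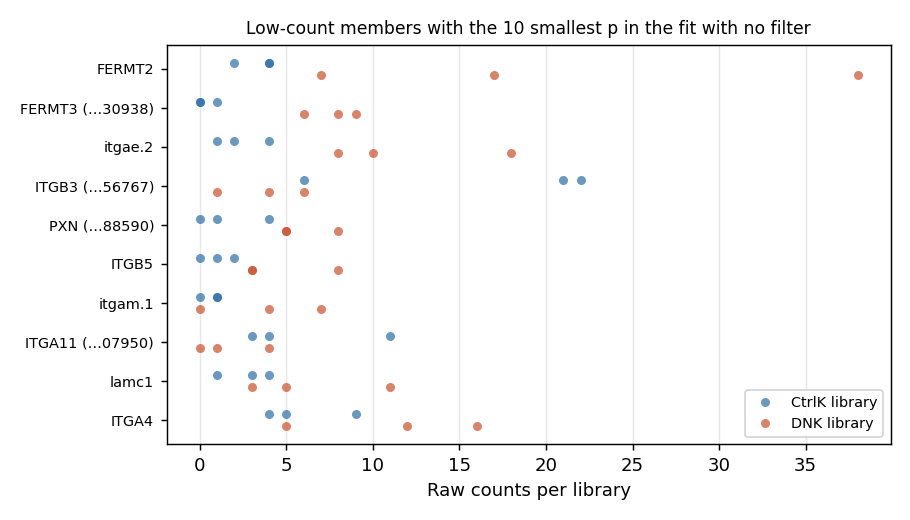
Raw counts per library (x axis) of the 10 untested members with the smallest p in the fit with no filter, with each CtrlK and DNK library as a point. FERMT2 reaches 38 counts in 1 DNK library, FERMT3 ENSDARG00000030938 has at most 1 count in a CtrlK library, and ITGB3 has at most 6 counts in a DNK library.

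Further low members had values that did not pass. ITGB3 ENSDARG00000056767, for the beta chain of the platelet fibrinogen receptor and of alpha V beta 3, had 6, 21 and 22 counts in CtrlK and 6, 4 and 1 in DNK, with a ratio of 0.241 (95% exact counting interval 0.113 to 0.470), with an edgeR adjusted p of 0.130 with no filter. The thrombocyte markers that are not adhesion genes summed to 67.1 ± 36.0 CPM in CtrlK and 79.3 ± 28.3 in DNK over 5 IDs. PXN ENSDARG00000088590, for the focal adhesion scaffold paxillin, had 5 and 18 counts, ITGB5 had 3 and 14, and ITGA4, the VCAM-1 receptor chain, had 18 and 33 in CtrlK and DNK. The paxillin, beta 5 and alpha 4 values all had edgeR adjusted p above that of ITGB3. lamc1, the gamma chain of most laminins, had 8 and 19 counts, LAMA5 28 and 20, and tln2b, a second talin-2 gene, 28 and 13. In the same order, thbs2b had 27 and 19 counts, lamb2l 26 and 10, NID1 ENSDARG00000068710 18 and 30, ITGB6 22 and 16, itga2.1 22 and 15, and ITGA11 ENSDARG00000007950 18 and 5. The second IDs of THBS1 (4 and 3), THBS3 (4 and 1), ITGB3 (1 and 0) and PXN (6 and 6) had almost none.

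Genes around the members were examined from 5 lists, without the members. Over all 5 lists 48 genes were tested and 4 were called by edgeR, or 8.33%, of which 3 rose (6.25%), beside 7.12% called and 4.72% called higher over all genes. Of 50 IDs for focal adhesion signalling 12 could be tested and 1 rose, CAV1, the coat protein of caveolae. Its level was 3568 ± 596 CPM in CtrlK and 6277 ± 548 in DNK (SD over 3 libraries, log2 fold change 0.81 ± 0.23, edgeR adjusted p = 0.0450). Its call was lost without any one library except CtrlK replicate 3 (adjusted p of 0.0768 to 0.171), with library size alone (0.0883), no filter (0.0611) and scaling to the 200 most abundant genes (0.860). Of 53 IDs for matrix proteases and their inhibitors 9 could be tested and 1 rose, CTSB, the lysosomal protease cathepsin B, from 1065 ± 188 to 2539 ± 121 CPM (1.25 ± 0.25, edgeR adjusted p = 0.0101), a call kept without each library but lost with scaling to the 200 most abundant genes (0.0632).

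Of 52 IDs for other adhesive glycoproteins and proteoglycans 16 could be tested, and vwf rose while EDIL3 fell. vwf, for von Willebrand factor, had 183 ± 80.2 CPM in CtrlK against 554 ± 103 in DNK (1.59 ± 0.36, edgeR adjusted p = 0.0178), and its call did not hold when CtrlK replicate 1 (0.0534), CtrlK replicate 2 (0.0604) or DNK replicate 1 (0.0624) was left out, nor with scaling to the 200 most abundant genes (0.0748). EDIL3 encodes an RGD-bearing ligand of alpha V integrins made by endothelium, with 82.9 ± 19.0 CPM in CtrlK against 16.7 ± 12.5 in DNK (SD over 3 libraries, log2 fold change −2.28 ± 0.58, edgeR adjusted p = 0.0297). Its 72.4, 71.5 and 105 CPM in CtrlK lay above 29.7, 4.79 and 15.7 in DNK, but the call was lost without any one library except DNK replicate 1 (adjusted p of 0.0731 to 0.128), with limma-voom (0.107) and with no filter (0.0505). Of 10 basement membrane collagen IDs 3 were tested and 0 passed by edgeR, with col18a1a at −0.90 ± 0.38 (adjusted p = 0.158) and COL4A1 at 0.84 ± 0.36 (0.166). Of 30 IDs for other matrix and adhesion receptors 8 were tested and 0 passed by edgeR. The heparan sulfate coreceptor sdc4 had 0.78 ± 0.27 (adjusted p = 0.0867) and CD36, a thrombospondin receptor, −1.35 ± 0.48 (adjusted p = 0.0987).

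Scaling moved the members together. The median log2 fold change of all tested genes was −0.07 with TMM factors and −0.30 with library size alone. It was 0.07 when scaled to reads outside genes (all reads not assigned to a gene) and −0.86 when scaled to the 200 most abundant genes. With that last scaling 10 of 31 members were called, all lower, beside 28.5% of all genes called in either direction and 27.0% called lower. Relative to the median of all genes, 18 of 31 members lay below it both there and with TMM factors, among them 14 of 19 ligands in both. A scaling moves all genes and their median by nearly the same amount. These counts could therefore hardly differ between scalings, and their agreement tests nothing.

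**Figure D5:**
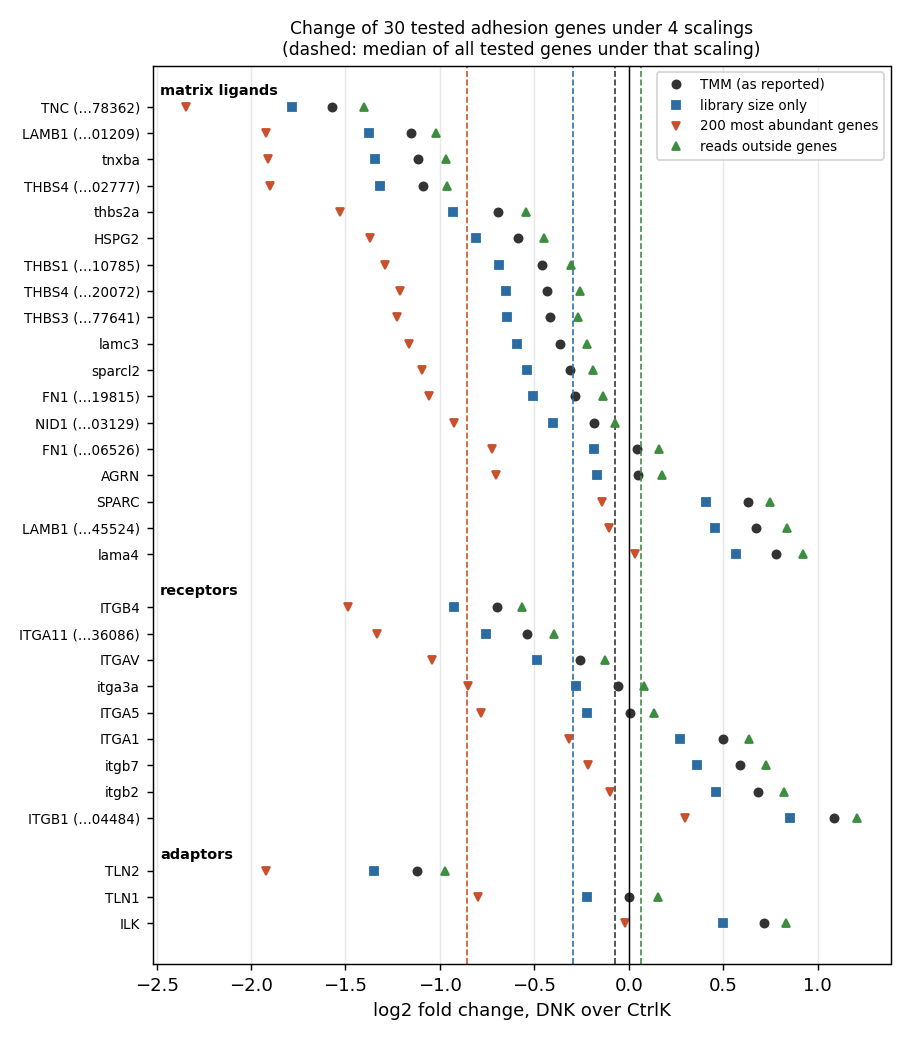
Log2 fold change of DNK over CtrlK (x axis) of 30 of the 31 tested members under 4 scalings (symbols), with the median of all tested genes under each scaling as a dashed line of the same colour. All the members drawn shift together with the scaling, and the medians run from −0.86 to 0.07.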

How the data were processed

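Per the labels, cDNA of the sorted cells was amplified by MALBAC. The authors deposited raw counts, a whole number for each Ensembl gene ID in each library. The submitters' processing notes list GRCz11 as the build and, with no role or order, HTSeq 0.6.1, HISAT2 2.1.0, DESeq2 1.22.2 and Trim Galore 0.6.0. The annotation release, the quality minimum and the strand setting were, for these tables, not given in the sources used here. Reads of overlapping, antisense or near-identical genes may thus be mixed or dropped. No molecular identifiers are described, so intervals and floors cover counting error only. Of each library's total 1.08% to 1.27% was assigned to genes in CtrlK and 1.47% to 1.48% in DNK. The 5 rows that name no gene were left out of the gene counts, and their sum is what is called reads outside genes.

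Names came from a table that named 29201 of 32520 IDs, and 13 member names are held by several member IDs. Counts were filtered with filterByExpr and tested with edgeR 4.0.16 (TMM, glmQLFit with robust = TRUE, glmQLFTest, R 4.3.3), with Benjamini-Hochberg adjustment over all genes tested and calls below 0.05. SE is the absolute log2 fold change over the square root of F. Normalized CPM divide counts by the TMM-scaled total of gene counts. The steps were tested on simulated data, where 8.6% of 2-fold changes and 82.1% of 4-fold changes were called in the right direction. In that simulation a 2-fold change was thus mostly missed. It gave all genes the same dispersion and made 82 calls, against 270 in the data, and the share missed in the data was not measured. Alternatives used DESeq2 1.42.0, limma 3.58.1, other scalings and filters, the replicate block and each library left out. Fits with no filter and a further setting, the covariate and the odorant receptor sum were chosen after seeing the data. Members and lists were chosen with earlier results of these data known. Named genes are all members with 10 counts in 3 libraries, members under that with 10 counts in any library or sharing a name with a named one, and from each list up to 4 called genes or else the 2 with the smallest p. Not every gene this takes is printed. PXN, ITGB5, itgam.1, itgae.1, ITGA6, itga6b, FERMT1, itga2b and vinculin lie outside the rule and were named after their values were seen. Another tested member counts in the totals and sums but is otherwise not reported here.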

Additional observations from a re-analysis of the deposited data

How the results depend on the processing

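No paired design was found: deviations of same-numbered libraries from their group means correlated at −0.105, −0.00300 and −0.0420, and no library correlated best with the one of its own number. With the replicate block 252 genes were called, 1 of them a member (TNC, adjusted p = 0.0494), while itgae.2 with no filter (0.107) and CAV1 (0.109) were no longer called. The count of called members was 0 as reported and also with RLE factors, reads outside genes, limma-voom, robust = FALSE, a filter of 10 counts in 3 libraries and the covariate. It was 2 with DESeq2, 2 with a filter of 50 counts in 3 libraries (tnxba and ITGB4), 3 with library size alone (TNC, tnxba and THBS4), 3 with no filter and 10 with scaling to the 200 most abundant genes. It was 0 to 1 without single libraries, where tnxba passed without CtrlK replicate 1, FERMT2 without DNK replicate 1 and ITGB1 ENSDARG00000104484 without DNK replicate 3. FERMT2 met the filter there only through DNK libraries, the group where it is higher. Its edgeR adjusted p reached 0.0764 in other fits without a single library. Over all genes 270 were called, 179 higher and 91 lower. Leaving out single libraries gave 89 to 277 calls, 74 to 213 higher and 14 to 64 lower. Scaling to the 200 most abundant genes gave 1079, 55 and 1024, and the covariate of reads outside genes, which separates the groups and so cannot be told apart from them, gave 1, 1 and 0. Calls higher numbered 283 with no filter and 106 with the filter of 50 counts, and calls lower 164 with library size alone, 60 with reads outside genes and 46 with limma-voom. The share of calls that were higher differed by over 10 percentage points from the 179 of 270 reported with library size alone (121 of 285), reads outside genes (231 of 291), no filter (283 of 370) and the filter of 50 counts (106 of 190), besides the 200 most abundant genes and the covariate. It differed as much without CtrlK replicate 3 (213 of 277) and without DNK replicate 1 (75 of 89), 2 (105 of 136) or 3 (123 of 159).

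Negative values among ligands numbered 14, but 22 with no filter and 2 with the filter of 50 counts (more or fewer genes tested). Without single libraries they numbered 14 to 16. They numbered 18 with the 200 most abundant genes, 16 with library size alone and 11 with the covariate. Among receptors there were 4, but 13 with no filter, 8 with the 200 most abundant genes and 4 to 7 without single libraries. Among adaptors there was 1, but 4 with no filter, 3 with the 200 most abundant genes, 2 with library size alone, limma-voom, the block, the covariate or the filter of 10 counts, and 1 to 2 without single libraries. The log2 ratio of summed levels was −0.44 for ligands (−0.66 with library size alone), −0.10 for receptors and 0.32 for adaptors, and −1.24, −0.90 and −0.47 with the 200 most abundant genes.

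Log2 fold changes of tested members that changed sign are given next. Scaling to the 200 most abundant genes, to library size alone or to reads outside genes shifts all genes nearly alike. Sign changes under these scalings thus do not measure how stable a member is, nor do those of the covariate. With the 200 most abundant genes the values were −0.017 for ILK, −0.80 for TLN1, −0.14 for SPARC, −0.72 for FN1 ENSDARG00000006526, −0.10 for LAMB1 ENSDARG00000045524, −0.70 for AGRN, −0.78 for ITGA5, −0.32 for ITGA1, −0.10 for itgb2 and −0.22 for itgb7. With library size alone they were −0.22 for TLN1, −0.18 for FN1 ENSDARG00000006526, −0.17 for AGRN and −0.22 for ITGA5. With the covariate they were −0.77 for ILK, −0.49 for SPARC, −0.96 for FN1 ENSDARG00000006526, 0.020 for FN1 ENSDARG00000019815, −0.85 for AGRN, 0.28 for THBS1, 0.35 for THBS3, 1.102 for THBS4 ENSDARG00000020072, 0.29 for thbs2a and −0.51 for ITGA5. With limma-voom they were −0.019 for TLN1, −0.016 for AGRN and −0.074 for ITGA5. With the block they were −0.036 for TLN1 and −0.044 for ITGA5. With the filter of 50 counts they were −0.24 for TLN1 and −0.23 for ITGA5, with that of 10 counts −0.0016 for TLN1, and for itga3a 0.059 with no filter and 0.081 with reads outside genes. Without single libraries the ranges were −0.27 to 0.18 for TLN1, −0.11 to 0.37 for FN1 ENSDARG00000006526, −0.31 to 0.33 for AGRN, −0.42 to 0.31 for NID1, −0.79 to 0.081 for THBS4 ENSDARG00000020072, −0.19 to 0.32 for ITGA5, −0.53 to 0.058 for ITGAV and −0.28 to 0.21 for itga3a. The cause of these changes was not tested. At 174371 to 227373 gene counts, 54 of 85 members were too low for the test as reported.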

Other observations

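Several genes of integrin adhesion were nearly without counts. Vinculin, which couples talin to actin, had 2 IDs with 1 and 7 counts over the 6 libraries together. ITGA6, the partner chain of beta 4, had 5 counts in CtrlK and 5 in DNK, itga6b had 0, and itga6l had 36 and 23, while ITGB4 itself had 449 and 257. FERMT1, the kindlin of epithelia, had 1 count, and itga2b, the thrombocyte chain, had 4 in CtrlK and 2 in DNK. At this depth such counts do not show that a gene is silent.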
